A study of Rattus norvegicus with 48 samples.

Results

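The miR-17-92 cluster is a group of microRNAs (miRNAs) cut from 1 shared primary transcript. It was followed here through its 6 mature products rno-miR-17-5p, rno-miR-18a-5p, rno-miR-19a-3p, rno-miR-19b-3p, rno-miR-20a-5p and rno-miR-92a-3p (the prefix is left out from here on). They were chosen by name as members of the cluster, with earlier results of these data known. They are 6 of the 763 mature miRNAs listed in every library, of which 629 had at least 1 read. All 6 had reads in each of the 48 libraries.

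The libraries were small RNA sequencing of 32 sera and 16 ulna bones of male rats, used to ask how diabetes and bone treatments change miRNA levels. ZDF rats are homozygous for a leptin receptor mutation (fa/fa) and become diabetic, and the WT rats are their lean controls (ZDF +/+). All rats of both genotypes carried a defect cut into the femur and ate a high-fat, high-carbohydrate diet. Treatment ran for 12 weeks from 11 weeks of age, after which serum and ulna were taken. WT sera came from rats given placebo (n = 5), parathyroid hormone at 75 µg/kg (PTH, n = 5) or an anti-sclerostin antibody at 25 mg/kg (n = 4). ZDF sera came from the same 3 treatments (n = 5, 5 and 4) and from insulin, raised from 0.5 to 13 IU (n = 4). Bones covered both genotypes under placebo and under PTH, with n = 4 in every group. All sample titles begin with ZDF, those of WT libraries included, and the study's text and methods differ in the number of lean rats, so the genotype rests on the group label alone. Insulin was given to ZDF rats only, so its effect in WT rats cannot be read from these data.

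A miRNA recognises its target mRNAs mainly through its seed, the bases 2 to 8 from the 5′ end, and lowers their translation or stability. The cluster is best known for promoting proliferation and survival, and its loss in mice disturbs B cell and skeletal development. In blood, miR-92a-3p is abundant in erythrocytes and platelets. Mature miRNA levels depend on the processing and stability of each product as well as on transcription.

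The mature sequences are shown because they define which members share targets and which members can share reads. They are from RefSeq (GRCr8), in the order of their seeds, with the seed in capitals. MiR-17-5p and miR-20a-5p share 1 seed and miR-18a-5p differs from it within the seed. MiR-19a-3p and miR-19b-3p share another, and miR-92a-3p has its own.
miR-17-5p: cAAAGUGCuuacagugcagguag
miR-20a-5p: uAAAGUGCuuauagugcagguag
miR-18a-5p: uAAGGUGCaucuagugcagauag
miR-19a-3p: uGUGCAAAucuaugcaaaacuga
miR-19b-3p: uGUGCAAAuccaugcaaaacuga
miR-92a-3p: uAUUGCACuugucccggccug

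In GRCr8 the 6 products lie within 762 bases of the plus strand, chr15:98587861-98588622, each in its own annotated miRNA gene. From 5′ to 3′ these are Mir17 (product at chr15:98587861-98587883), Mir18a (chr15:98588000-98588022), Mir19a (chr15:98588179-98588201), Mir20a (chr15:98588318-98588340), Mir19b1 (chr15:98588486-98588508) and Mir92a1 (chr15:98588602-98588622). The same mature sequences of miR-17-5p, miR-19b-3p and miR-92a-3p are also encoded on the minus strand of chromosome X, at chrX:137342945-137343637, in Mir106a, Mir19b2 and Mir92a2. Reads of these 3 members can come from either locus. MiR-18a-5p, miR-19a-3p and miR-20a-5p are encoded on chromosome 15 alone in this table.

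MiR-19a-3p and miR-19b-3p differ by a single substitution, U11C (the base of miR-19a-3p, the position from the 5′ end, the base of miR-19b-3p). The mapping to miRBase allowed 1 mismatch, so the counts of this pair are uncertain. MiR-17-5p and miR-20a-5p differ by 2 substitutions, C1U and C12U.

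The cluster took 8.31 to 22.3% of all miRNA reads in the sera (median 11.8%) and 0.636 to 1.88% in the bones (median 1.21%). MiR-92a-3p was the third most abundant of 534 miRNAs detected in serum by mean level and miR-19b-3p ranked 8 in that order. MiR-19a-3p, miR-17-5p, miR-20a-5p and miR-18a-5p ranked 35, 47, 51 and 127. In bone the order was miR-19b-3p at 33 of 603, miR-92a-3p at 46, miR-19a-3p at 80, miR-20a-5p at 147, miR-17-5p at 149 and miR-18a-5p at 227.

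Libraries held 28015 to 205664 miRNA reads in serum and 41627 to 1398702 in bone. Levels are given as TMM CPM, miRNA reads scaled to CPM with edgeR's TMM factors, computed within each tissue unless said otherwise, and counts limit their precision for the rarer members. MiR-18a-5p had the fewest reads, 3 to 73 in a serum and 2 to 40 in a bone. Of the 4 mesenchymal and bone markers, miR-199a-5p (6050 to 18684 CPM in bone, 27.1 to 607 CPM in serum) and miR-199a-3p (2467 to 22275 and 24.5 to 1173 CPM) were higher in every bone than in every serum. MiR-214-3p overlapped (192 to 4343 and 69.8 to 1113 CPM), and miR-140-3p had the lower median in bone (15137 and 27510 CPM). The sum of the 4 overlapped, at 22043 to 69537 CPM in bone and 15653 to 57164 CPM in serum. Bones also held muscle miRNAs, with miR-1-3p, miR-133a-3p, miR-133b-3p and miR-206-3p summing to 47869 to 456591 CPM against 117 to 45255 CPM in serum. In a bulk sample, fewer cells of a type and less RNA per cell cannot be told apart.

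**Figure D1:**
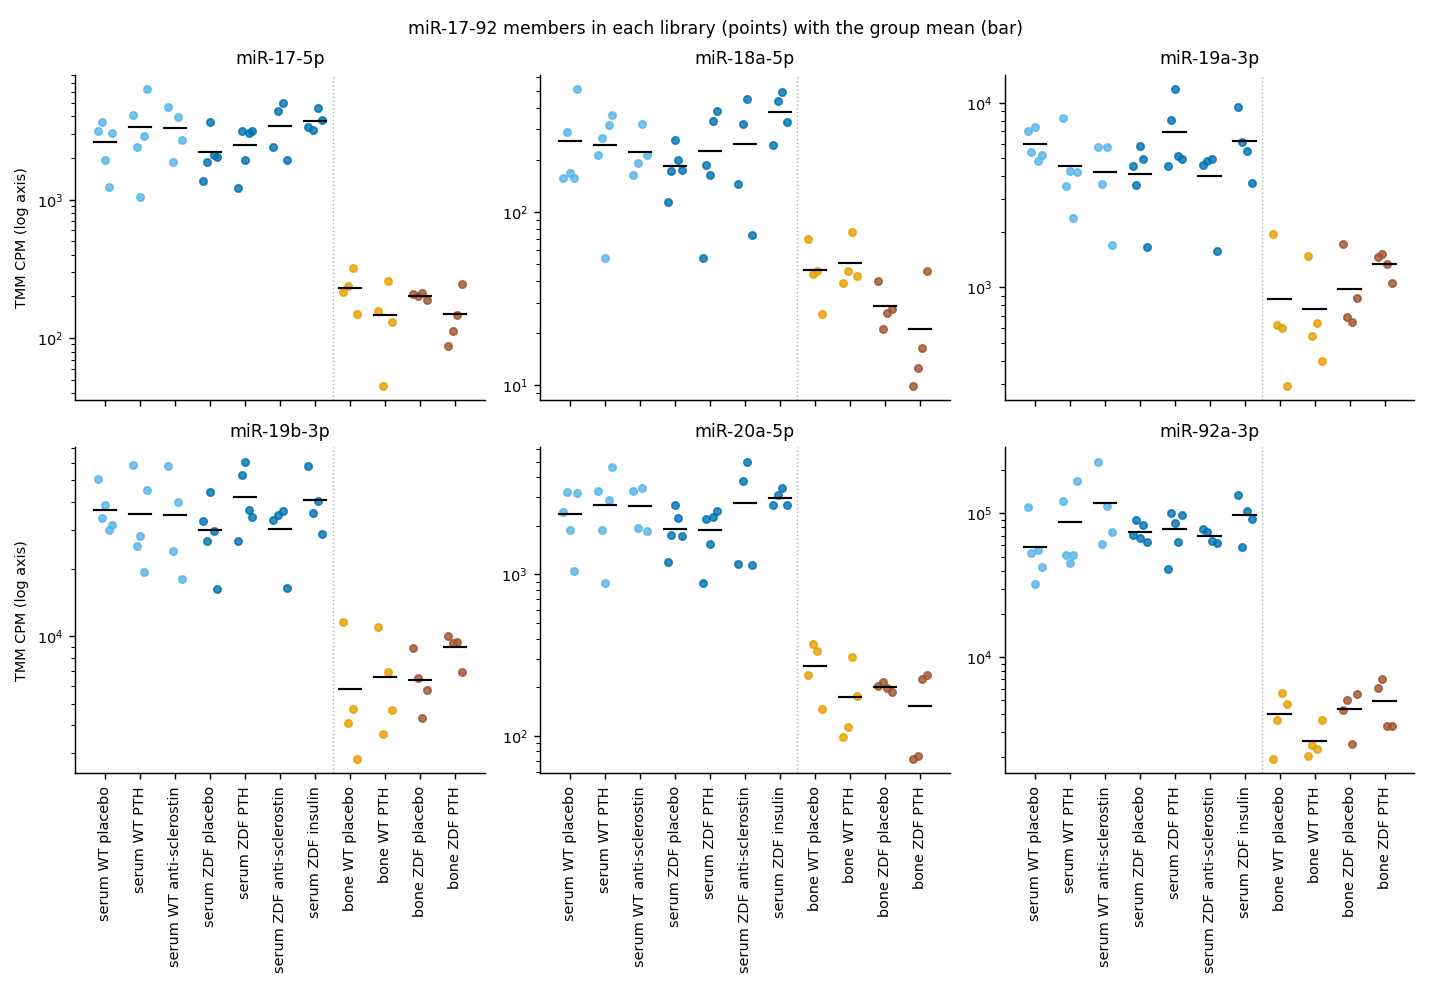
Level of each member in TMM CPM (log axis) in every library, by group, with WT sera in light blue, ZDF sera in dark blue, WT bones in orange and ZDF bones in brown. Points are libraries and horizontal bars are group means. Every bone lies below every serum for miR-17-5p, miR-19b-3p, miR-20a-5p and miR-92a-3p, the last with 32210 to 227312 CPM in serum and 1964 to 7060 CPM in bone. Levels were scaled within each tissue, and the share of all miRNAs with such a separation was not computed. Under placebo, 80.6% of 222 tested miRNAs in WT and 86.1% of 202 in ZDF rats were called between tissues.

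The placebo groups of both genotypes gave the comparison of tissues, and all 6 members were lower in bone than in serum in WT and in ZDF rats. MiR-92a-3p had the largest difference. In WT serum it stood at 111233, 52757, 32210, 55973 and 42233 CPM, and in WT bone at 1964, 3661, 5652 and 4741 CPM. Every serum was above every bone, and with both tissues scaled together the mean was 15.3-fold higher in serum. The log2 fold change of bone against serum was -4.21 (SE 0.50, FDR 5.17e-06).

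In ZDF rats miR-92a-3p was at 63272 to 90414 CPM in serum and at 2471 to 5560 CPM in bone, a log2 fold change of -4.11 (SE 0.32, FDR 5.23e-08). With the tissues scaled together, miR-17-5p was at 2816 ± 1143 CPM (SD, n = 5) in WT serum and 237 ± 93.7 CPM (n = 4) in WT bone. Its log2 fold changes were -3.77 (SE 0.47, FDR 6.82e-06) in WT and -3.46 (SE 0.41, FDR 1.70e-06) in ZDF rats. For both members the ranges of the tissues did not overlap.

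MiR-19a-3p and miR-19b-3p differed less between the tissues. In ZDF serum miR-19a-3p was at 4552, 3598, 5826, 4987 and 1657 CPM, and in ZDF bone at 1723, 688, 651 and 877 CPM. The lowest serum lay under the highest bone, the single overlap among the members. The log2 fold change was -2.07 (SE 0.45, FDR 0.000585) in ZDF rats and -2.92 (SE 0.56, FDR 0.000274) in WT rats. MiR-19b-3p gave -2.26 (SE 0.37) and -2.82 (SE 0.51), at FDR 4.97e-05 and 0.000169.

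MiR-20a-5p and miR-18a-5p completed the set, with log2 fold changes of -3.40 and -2.73 in WT rats and -3.26 and -2.76 in ZDF rats. By exact permutation of the levels, two-sided p was 0.0159 for each of the 6 in WT and for 5 in ZDF rats, the smallest that 4 against 5 libraries can give. The exact permutation p for miR-19a-3p in ZDF rats was 0.0317.

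Most miRNAs differed between the tissues. In WT rats 80.6% of the 222 tested miRNAs were called in either direction and 38.7% were called lower in bone, and in ZDF rats 86.1% and 40.1% of 202. The members' median log2 fold change was -3.16 in WT rats, beside 0.10 over all tested miRNAs, and -3.01 beside 0.21 in ZDF rats. Serum was lysed directly and frozen bone was crushed before lysis, so tissue and extraction cannot be told apart. The 4 erythrocyte markers, miR-451-5p, miR-144-3p, miR-144-5p and miR-486, summed to 26300 to 381326 CPM in serum and 7646 to 12572 CPM in bone. Of these, miR-451-5p, miR-144-3p and miR-486 were called lower in bone in both genotypes. MiR-144-5p was not called, at log2 fold changes of -0.09 (SE 0.48, FDR 0.872) in WT and 0.28 (SE 0.35, FDR 0.467) in ZDF rats. The part of the erythrocyte markers in the result was not tested.

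**Figure D2:**
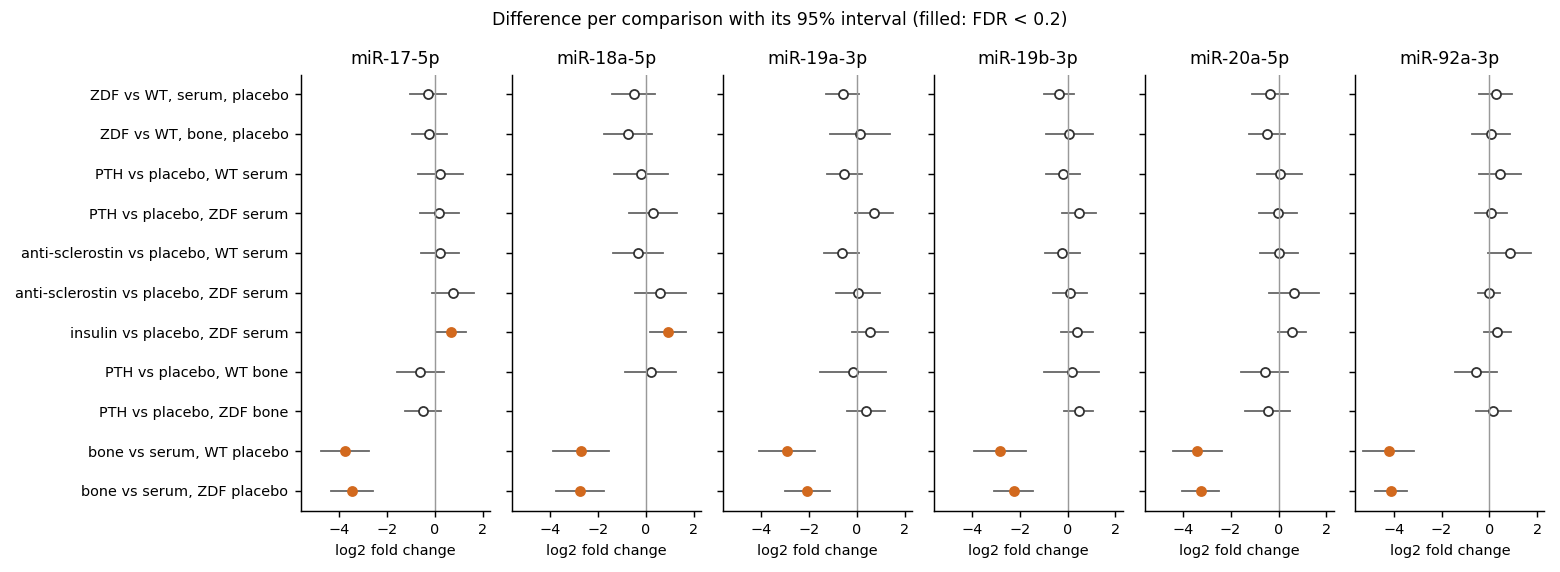
Log2 fold change of each member (panels) in the 11 comparisons of 2 groups (rows), as edgeR estimated it, with its 95% interval. Filled points are called at FDR < 0.2, which holds for all 6 members in both comparisons of bone with serum and for miR-17-5p and miR-18a-5p under insulin.

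The make-up of the cluster also differed between tissues. Of the cluster's reads miR-92a-3p made up 62.7 ± 8.51% (SD, n = 32) in serum and 33.6 ± 12.3% (n = 16) in bone. MiR-19b-3p made up 28.6 ± 6.63% in serum and 55.0 ± 10.9% in bone, and miR-19a-3p 4.19 ± 1.62% and 7.68 ± 2.39%. MiR-17-5p made up 2.38 ± 0.815% and 1.60 ± 0.750%, miR-20a-5p 1.98 ± 0.860% and 1.80 ± 0.960%, and miR-18a-5p 0.209 ± 0.122% and 0.335 ± 0.196%. Shares of reads do not depend on the scaling of libraries, but they can carry the ligation bias of each sequence.

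Ratios of reads within a library were taken for several pairs of members, of which 3 are given here. MiR-92a-3p over miR-19b-3p ran from 0.83 to 4.10 in serum (median 2.17) and from 0.17 to 1.67 in bone (median 0.64). MiR-19b-3p over miR-19a-3p was alike in both, at 5.10 to 10.7 in serum (median 7.16) and 5.17 to 11.8 in bone (median 6.79). MiR-17-5p over miR-20a-5p had medians of 1.25 and 0.98. The ranges of the tissues overlapped in all 3 ratios. Among these 3 the medians lay farthest apart for miR-92a-3p over miR-19b-3p, neighbours at the 3′ end of the cluster. In shares of reads, miR-92a-3p was lower and miR-19b-3p higher in bone, so this ratio does not tell which of them moved against the other members.

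**Figure D3:**
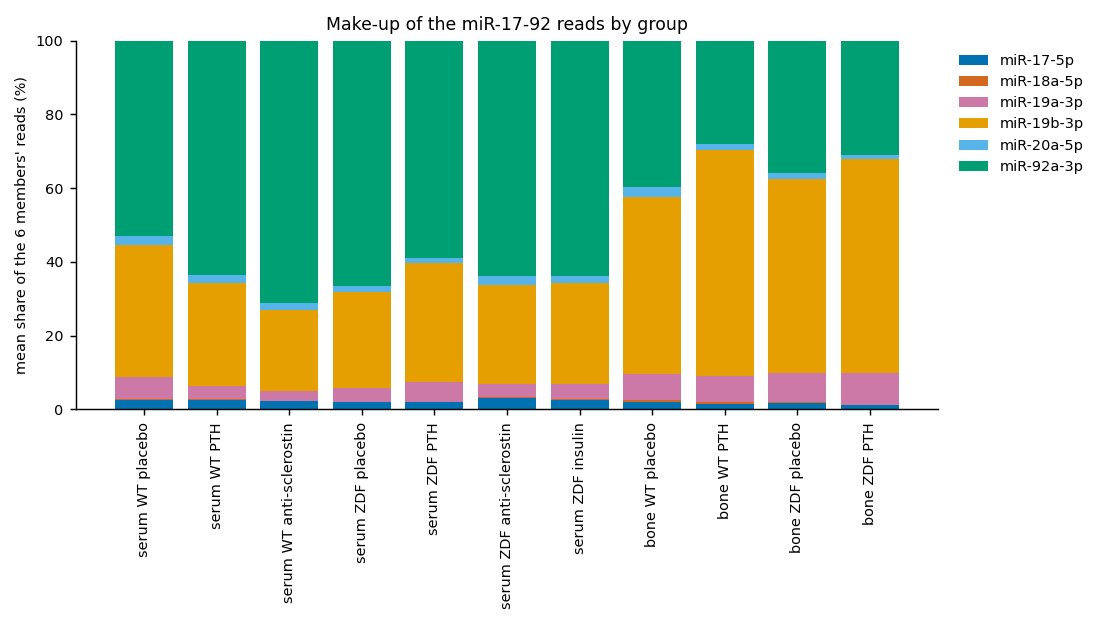
Mean share (%) of the 6 members' reads taken by each member, stacked to 100%, by group. MiR-92a-3p (green) takes a mean of 62.7% over the sera and 33.6% over the bones, and miR-19b-3p (orange) 28.6% and 55.0%.

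Among libraries of 1 tissue the members did not move as a block. Over the 32 sera, Pearson's r of log2 levels was 0.93 between miR-17-5p and miR-20a-5p (Spearman's rho 0.93), 0.84 between miR-18a-5p and miR-20a-5p (0.78) and 0.92 between miR-19a-3p and miR-19b-3p (0.89). Between miR-17-5p and miR-19a-3p it was 0.21 (0.37). Over the 16 bones the pairs that share a seed gave 0.77 (0.86) and 0.93 (0.89), and miR-18a-5p and miR-92a-3p gave -0.65 (-0.59). These values pool groups and share library scaling, and the pair of miR-19a-3p and miR-19b-3p may also share reads.

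The miRNAs most like the mean of the members' log2 levels in serum were miR-128-3p (r 0.76), miR-191a-5p (0.74), miR-181d-5p (0.62), miR-425-3p (0.61) and miR-425-5p (0.60). They came from 163 with at least 100 CPM on average, and rho was 0.81, 0.75, 0.63, 0.66 and 0.59 in that order. In bone they were miR-451-5p (0.71), miR-223-3p (0.71), miR-33-5p (0.57), miR-17-1-3p (0.56) and miR-708-5p (0.54), of 172. There rho was 0.65, 0.63, 0.41, 0.58 and 0.24. The members did not move together in bone, so likeness to their mean is not likeness to each member. MiR-451-5p marks erythrocytes and miR-223-3p myeloid cells. The erythrocyte markers miR-144-3p, miR-144-5p and miR-486 were compared too and are not on the bone list. Neither are the leukocyte markers miR-142-3p, miR-142-5p and miR-150-5p, so the list does not stand for a cell type. MiR-17-1-3p is the other arm of the hairpin that gives miR-17-5p.

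That arm is shown because its balance with miR-17-5p differed between tissues, a comparison chosen after the values were seen. It lies at chr15:98587898-98587919 (GRCr8, RefSeq), with its seed in capitals.
miR-17-1-3p: aCUGCAGUgaaggcacuugugg

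Per 100 reads of miR-17-5p a serum library held 0 to 9.47 reads of miR-17-1-3p (median 2.50) and a bone library 21.1 to 170 (median 81.1). No bone overlapped with any serum, and the share of other pairs of miRNAs with such a separation was not computed. Some bone values rest on few reads, with 7 beside 8 in WT PTH bone 1 and 3 beside 2 in WT PTH bone 2. Summed over libraries, the arm had 243 reads beside 9245 of miR-17-5p in serum, and 704 beside 1183 in bone. In TMM CPM, miR-17-1-3p was at 0 to 237 in serum and 52.8 to 256 in bone. Its log2 fold change of bone against serum in WT rats was -0.57 (SE 0.54, FDR 0.359), beside -3.77 for miR-17-5p. It did not pass the filter in the ZDF comparison of tissues.

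The other hairpins had fewer reads from the second arm. Per 100 reads of the member in all libraries of a tissue, miR-20a-3p had 0.220 reads in serum and 4.08 in bone, and miR-92a-1-5p 0.00903 and 0.570. MiR-18a-3p had 9.84 and 21.8, and miR-19a-5p had 1.46 and 0.687, so miR-19a differed in the opposite direction. These sums rest on 17 to 229 reads in serum and 35 to 148 in bone. Per library the ranges of the tissues overlapped for each of these arms. For example, miR-20a-3p had 0 to 3.13 per 100 in serum and 0 to 13.8 in bone, and miR-18a-3p 0 to 133 and 0 to 125. The other arms differ between the chromosome 15 and chromosome X hairpins. MiR-17-2-3p, of Mir106a, had 31 reads over the sera and 21 over the bones, beside the 243 and 704 of miR-17-1-3p. MiR-92a-2-5p of chromosome X had 0 in both tissues, beside 22 and 148 of miR-92a-1-5p. MiR-19b-2-5p had 0 in both and its chromosome 15 partner miR-19b-1-5p had 0 and 3, so these arms do not tell the miR-19b loci apart.

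**Figure D4:**
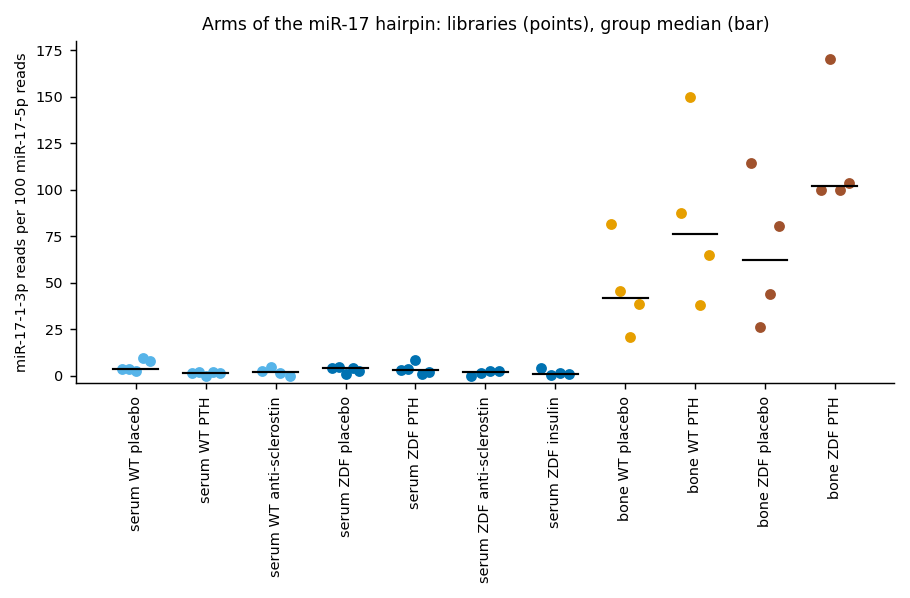
Reads of miR-17-1-3p per 100 reads of miR-17-5p (vertical axis) in every library, by group. Points are libraries and bars group medians; the sera lie between 0 and 9.47 and the bones between 21.1 and 170.

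Diabetes was addressed by ZDF against WT rats under placebo, and no member was called in either tissue by edgeR or by DESeq2. In serum 5 of the 6 had lower means in ZDF rats and miR-92a-3p a higher one, with log2 fold changes between -0.60 and 0.27 and a median of -0.36, beside -0.09 over all miRNAs tested. MiR-19a-3p differed most, at 7041, 5416, 7375, 4852 and 5243 CPM in WT and 4552, 3598, 5826, 4987 and 1657 CPM in ZDF sera. The groups overlapped, and its log2 fold change was -0.60 (SE 0.33, FDR 0.453), with an exact permutation p of 0.0794. The background was 6.10% of 164 tested miRNAs called.

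In bone the log2 fold changes of ZDF against WT ran from -0.74 (miR-18a-5p, SE 0.45) to 0.14 (miR-19a-3p, SE 0.57), with 2.55% of 235 miRNAs called. The library bone WT placebo 1 had 1946 CPM of miR-19a-3p against 294 to 623 in the other 3, and 1964 CPM of miR-92a-3p against 3661 to 5652. Bone ZDF placebo 1 was also high in miR-19a-3p, at 1723 CPM against 651 to 877 CPM in the rest of its group. Neither is among the libraries flagged below as far from the others. Without bone WT placebo 1, miR-19a-3p and miR-19b-3p were called higher in ZDF bone, at log2 fold changes of 0.95 (FDR 0.187) and 0.69 (FDR 0.197), and 87 of 264 miRNAs were called in all. With each of the other 7 bones left out instead, 0 members were called.

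PTH is given to build bone. No member was called for PTH against placebo in WT serum, ZDF serum, WT bone or ZDF bone by edgeR or DESeq2, and none had an unadjusted p under 0.05. In serum the log2 fold changes ran from -0.52 to 0.46 in WT and from -0.02 to 0.72 in ZDF rats. MiR-19a-3p gave the lowest value in WT rats, -0.52 (SE 0.35), and the highest in ZDF rats, 0.72 (SE 0.37). Its sera stood at 8323, 3530, 4257, 2380 and 4233 CPM in WT PTH and 4532, 8051, 11825, 5176 and 4933 CPM in ZDF PTH rats, and both groups overlapped with their placebo group. The difference of the 2 responses was 1.19 (SE 0.51), with an unadjusted p of 0.0285 and an FDR of 0.922. With the hemolysis measure described under insulin as a covariate it was 0.86 (SE 0.47, FDR 0.993). The ZDF PTH serum with 11825 CPM had the highest hemolysis measure of all sera, 4.29.

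The serum comparisons of PTH called 0 of 170 miRNAs in WT and 0 of 154 in ZDF rats (0% in each), where 2 and 4 had an unadjusted p under 0.05 and DESeq2 called 0. In bone 5.41% of 222 were called in WT and 0% of 215 in ZDF rats, where 13 had an unadjusted p under 0.05 and DESeq2 called 1. Members' log2 fold changes in bone ran from -0.61 to 0.20 in WT rats and, for the 5 that passed the filter, from -0.51 to 0.46 in ZDF rats. MiR-17-5p had only 2 and 8 reads in 2 of the WT PTH bones. MiR-18a-5p did not pass the filter in ZDF bone, at 8, 22, 4 and 6 reads under placebo and 4, 3, 3 and 40 under PTH.

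The anti-sclerostin antibody blocks sclerostin, an inhibitor of Wnt signalling made by osteocytes. No member was called in WT or ZDF serum by edgeR or DESeq2. MiR-92a-3p stood at 227312, 61177, 113044 and 73915 CPM in treated WT rats, beside the placebo values of 32210 to 111233 CPM given above. The groups overlapped, the log2 fold change was 0.85 (SE 0.43, FDR 0.506) and the exact permutation p was 0.0952. Without the library serum WT placebo 1, the highest placebo serum, miR-92a-3p was called at 1.35 (SE 0.45, FDR 0.167). The erythrocyte marker miR-451-5p had a log2 fold change of -1.99 (SE 0.66, FDR 0.293) in the same comparison. The other erythrocyte markers differed less, with miR-144-3p at -0.80 (SE 0.44), miR-486 at -0.21 (SE 0.35) and miR-144-5p at 0.42 (SE 0.48). With the hemolysis measure described under insulin as a covariate, miR-92a-3p was at 0.36 (SE 0.50).

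In ZDF serum the members' log2 fold changes under the antibody ran from -0.02 (miR-92a-3p, SE 0.21) to 0.75 (miR-17-5p, SE 0.40). MiR-92a-3p over miR-19b-3p in reads was 2.53 to 4.10 in treated WT rats and 0.83 to 2.20 in WT placebo, without overlap, and 1.76 to 3.76 and 1.52 to 3.88 in ZDF rats. This ratio was looked at after its values were seen and was not tested. Calls were 0% of 171 in WT serum (18 with an unadjusted p under 0.05, DESeq2 called 5) and 1.27% of 158 in ZDF serum.

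The response to a treatment was also compared between genotypes. No member was called among the 182 miRNAs tested for PTH in serum, the 243 for PTH in bone and the 189 for the antibody in serum. Calls were 0% in each, with 8, 13 and 4 miRNAs at an unadjusted p under 0.05 and 0, 1 and 0 called by DESeq2. For miR-92a-3p the response to the antibody differed by -0.86 (SE 0.50, FDR 0.822) and that to PTH in bone by 0.81 (SE 0.56, FDR 0.753). The SE of these differences was 0.46 to 0.75 on the log2 scale, which limits what could be detected.

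Insulin was the metabolic treatment, given to ZDF rats, a model that the study describes as insulin resistant and hyperinsulinemic. It was the single treatment in which members were called, and miR-17-5p and miR-18a-5p were higher in insulin-treated than in placebo ZDF serum. MiR-18a-5p stood at 244, 436, 494 and 329 CPM under insulin and 115, 172, 260, 201 and 174 CPM under placebo. The lowest insulin serum lay below the highest placebo serum and 3 lay above all placebo sera. The log2 fold change was 0.93 (SE 0.36, FDR 0.124) and the exact permutation p 0.0317. The insulin libraries held 14 to 40 reads of it and the placebo libraries 6 to 35.

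MiR-17-5p stood at 3358, 3177, 4603 and 3743 CPM under insulin and 1358, 1869, 3641, 2121 and 2041 CPM under placebo. A single placebo serum lay within the range of the insulin sera. The log2 fold change was 0.67 (SE 0.30, FDR 0.165), and the exact permutation p was 0.0476. MiR-20a-5p, with the same seed, was at 2679 to 3406 CPM and 1186 to 2705 CPM, with a log2 fold change of 0.56 (SE 0.27, FDR 0.205) and an exact permutation p of 0.0476. MiR-19a-3p, miR-19b-3p and miR-92a-3p had log2 fold changes of 0.56 (SE 0.36), 0.39 (SE 0.31) and 0.33 (SE 0.26), none of them called.

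Of the 151 miRNAs tested under insulin, 26.5% were called and 11.3% were called higher, beside 2 of the 6 members. The members' median log2 fold change was 0.56, beside -0.10 over all miRNAs. The scaling mattered for this comparison. With library totals in place of TMM the median of all miRNAs was -0.40, the calls were 9 higher and 50 lower instead of 17 and 23, and no member was called, with miR-17-5p at 0.35 (FDR 0.406) and miR-18a-5p at 0.64 (FDR 0.223). Without the library serum ZDF insulin 3 no member was called (miR-17-5p FDR 0.386, miR-18a-5p FDR 0.320), and without serum ZDF placebo 3 there were 5, all but miR-92a-3p. MiR-17-5p also lost its call without serum ZDF insulin 1 or 4 or serum ZDF placebo 1, 2 or 5, at FDR up to 0.290, while miR-18a-5p kept it in each. Without serum ZDF insulin 2, miR-92a-3p was called as well, at 0.53 (FDR 0.149), and without serum ZDF placebo 4 miR-20a-5p was, at 0.64 (FDR 0.183).

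Erythrocyte miRNAs moved with insulin. Their 4 markers summed to 233362 to 381326 CPM in the insulin sera and 87066 to 159349 CPM in the placebo sera, and all 4 were called higher. MiR-451-5p had a log2 fold change of 2.33 (SE 0.32, FDR 0.000315), miR-144-3p 1.05 (FDR 0.0646), miR-486 0.85 (FDR 0.120) and miR-144-5p 0.71 (FDR 0.165). The hemolysis measure, log2 of miR-451-5p reads over those of miR-23a-3p, was 3.18 to 3.79 under insulin and -0.49 to 1.41 under placebo. The groups did not overlap in it, so treatment and hemolysis measure cannot be told apart.

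With that measure as a covariate no member was called. The log2 fold change of miR-17-5p was then -0.09 (SE 0.81, FDR 0.993) and that of miR-18a-5p 0.63 (SE 1.07, FDR 0.932), with standard errors well above those without the covariate. Over all 32 sera the hemolysis measure had r between -0.21 (miR-92a-3p) and 0.39 (miR-19a-3p) with the members, and -0.18 with miR-17-5p and 0.02 with miR-18a-5p. The ratio was set as a hemolysis measure for serum only. In bone the same log2 ratio had r of 0.72 with miR-19a-3p and 0.69 with miR-19b-3p, and -0.31 to 0.19 with the other 4. What it reflects in bone was not tested.

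**Figure D5:**
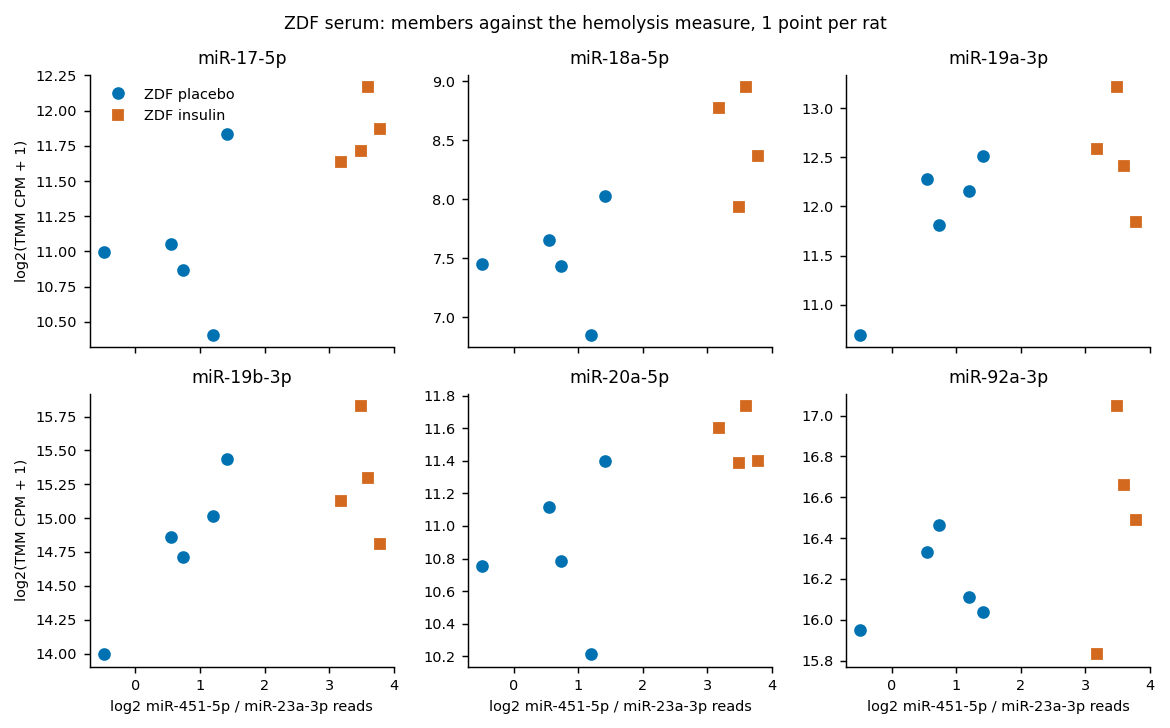
Level of each member as log2(TMM CPM + 1) in ZDF sera against the hemolysis measure (log2 of miR-451-5p over miR-23a-3p reads), with 5 placebo rats as blue circles and 4 insulin rats as orange squares. The insulin rats lie at 3.18 to 3.79 and the placebo rats at -0.49 to 1.41, and for miR-18a-5p 3 of the 4 insulin rats lie above all placebo rats.

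Related clusters gave values beside those of the members. The miR-106b-25 cluster carries the seed of miR-17-5p in miR-106b-5p and miR-93-5p, and the seed of miR-92a-3p in miR-25-3p. Under insulin miR-25-3p and miR-93-5p were called higher, at log2 fold changes of 1.25 (SE 0.28, FDR 0.0275) and 0.85 (SE 0.25, FDR 0.0646), and miR-106b-5p was at 0.25 (SE 0.35). All 3 were called lower in bone than in serum, at -2.36 to -3.29 in WT and -2.42 to -2.67 in ZDF rats. Of all tested miRNAs, 38.7% in WT and 40.1% in ZDF rats were called lower in bone. In the other 8 comparisons of 2 groups none was called where tested.

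Of the miR-106a-363 cluster on chromosome X, miR-363-3p was lower in bone at -2.08 (SE 0.54) in WT and -1.91 (SE 0.40) in ZDF rats. MiR-20b-5p was lower at -2.76 (SE 0.54) in WT rats and did not pass the filter in ZDF rats. Their seeds are those of miR-92a-3p and miR-17-5p. In the files 7 listed miRNAs outside the cluster carry a seed of a member, of the 686 of 763 that matched the sequence table by name. Of these, 6 of 7 tested were called lower in bone in WT rats, beside 38.7% of all 222 tested miRNAs. In ZDF rats it was 5 of 5, beside 40.1% of 202. These counts include miR-106b-5p, miR-93-5p, miR-25-3p, miR-363-3p and miR-20b-5p, whose values are given above, so they are not separate results. MiR-92b-3p was the one not called in WT rats, at -0.46 (SE 0.68, FDR 0.562).

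The span of the group means within a tissue was taken for each member, and the same span over all miRNAs was not computed. In serum the highest group mean was 1.40 times (miR-19b-3p) to 2.04 times (miR-18a-5p) the lowest, and in bone 1.53 times (miR-19b-3p) to 2.41 times (miR-18a-5p). MiR-17-5p, miR-18a-5p and miR-20a-5p were highest in ZDF insulin serum, at 3720 ± 634, 376 ± 111 and 2972 ± 351 CPM (SD, n = 4). MiR-19a-3p and miR-19b-3p were highest in ZDF PTH serum, at 6903 ± 3084 and 42144 ± 13819 CPM (n = 5). MiR-92a-3p was highest in WT anti-sclerostin serum, at 118862 ± 75593 CPM (n = 4), and lowest in WT placebo serum, at 58881 ± 30721 CPM (n = 5). In the order of group means, neighbouring groups overlapped in all 6 pairs in serum and all 3 pairs in bone, for every member. Neighbours in a sorted order have the closest means, so this overlap does not test differences between groups.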

How the data were processed

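Per the labels and the study's methods, the authors trimmed adapters with cutadapt, discarded reads shorter than 17 nt, and aligned the rest by Bowtie to Rnor 6.0, then to miRBase with 1 mismatch allowed. The deposited counts are whole reads per mature miRNA, without normalization. The authors also deposited RPM per library and a score scaled to miRNA reads, and neither was used in a test. Rows of added control RNAs (0.0552 to 16.1% of library reads) were left out. Coordinates and sequences are from RefSeq GRCr8, a different build.

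Counts were tested with edgeR 4.0.16 in R 4.3.3 (quasi-likelihood, TMM, filterByExpr with a minimum count of 10, only the groups compared, Benjamini-Hochberg FDR < 0.2 over all tested miRNAs). Levels were also compared by two-sided exact permutation of log2(TMM CPM + 1). The test was tried on simulated data. DESeq2 1.42.0, other scalings, filters and fits, and each library left out were alternatives. The members and lists were chosen with earlier results of these data known. Labels do not link bones to sera, so tissues were treated as independent. Per the study's methods, however, every placebo bone came from a rat whose serum was used. The p-values between tissues, those of exact permutation included, do not account for this. P-values reflect the spread between these samples, and 82 pairs of libraries within groups all differed beyond counting noise.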

Additional observations from a re-analysis of the deposited data

Results flagged for a closer look

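In 66 sets of a member in a group, 3 had a single library far from the others, where chance gives about 1 in 20. In ZDF anti-sclerostin serum, replicate 4 was lowest for miR-19a-3p, at 1566 CPM (64 reads) against 4576 to 4985 CPM in the other 3. The same library was lowest for miR-19b-3p, at 16493 CPM (674 reads) against 33328 to 36451 CPM. In WT PTH bone, replicate 3 was highest for miR-18a-5p, at 77.0 CPM (14 reads) against 39.2 to 45.4 CPM. The cause was not tested.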

How the results depend on the processing

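All 6 members were called lower in bone than in serum in both genotypes under each alternative and with each library left out (6 to 6 in each genotype). The insulin comparison was less stable: 2 members were called, and 0 with library totals, 0 with no filter beyond 1 read, 0 at FDR < 0.05, 0 with all serum groups in one fit and 0 with the hemolysis covariate, where miR-17-5p turned to -0.085. The number was 3 with RLE, with DESeq2 and without the marker miRNAs (the last chosen after seeing the data), and 0 to 5 with a library left out, where log2 fold changes ran from 0.57 to 0.97 for miR-17-5p and from 0.84 to 1.14 for miR-18a-5p. For ZDF against WT bone a library left out gave 0 to 2 members and for the antibody in WT serum 0 to 1. In the other comparisons 0 members were called under each setting. Counts over all miRNAs moved more: 40 under insulin became 12 with all serum groups in one fit, 3 at FDR < 0.05, 0 with the covariate and 4 to 59 with a library left out. For ZDF against WT they were 10 in serum (33 with no filter) and 6 in bone (40 with DESeq2, 0 to 87 with a library left out), for PTH in WT bone 12 (43 with DESeq2, 0 to 89), for the antibody in ZDF serum 2 (11 with DESeq2, 0 to 22) and in WT serum 0 (5 with DESeq2, 0 to 9). With all miRNAs of at least 1 read and independent filtering, the kind of filter the study used, these counts were 37, 29, 55, 24 and 17, and 49 under insulin. No paired analysis was possible because the groups share no replicate numbers in the labels. Depth limits miR-18a-5p most, and counting error alone is large at its 2 to 40 reads in bone.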
